A study of Caenorhabditis elegans with 2 samples.

Results

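Distal SAEG-2 peaks are the sites of tagged SAEG-2 in the nematode Caenorhabditis elegans that lie far from the start of any protein-coding transcript. They were taken from the authors' conservative peak list, which rests on both replicates. A peak was kept where its summit, the position of highest enrichment, was more than 2000 bp from every annotated 5′ end of a protein-coding transcript (Ensembl release 115, WBcel235). The rule kept 329 of 1145 peaks (28.7%, 95% Wilson interval 26.2 to 31.4). The 816 remaining peaks are called the other peaks. In the lists called on each replicate alone, 119 of 452 peaks of replicate 1 and 142 of 541 peaks of replicate 2 met the same rule.

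The assay was chromatin immunoprecipitation followed by sequencing (ChIP-seq), in which DNA bound by a protein is recovered with an antibody and enriched places are called as peaks. The samples form 1 group of 2 biological replicates. The worms were of strain RW12230, in which CRISPR placed the tag TY1::EGFP::3xFLAG into saeg-2 at its own place on chromosome III. Populations were bleached, starved as L1 larvae and grown to L4 larvae (48 h), and whole animals were used, so that the tissues in which a site is bound cannot be told apart. The precipitation used an anti-GFP antibody. No control precipitation and no second condition was analysed here, and the read depth is unknown. Each peak carries a signal value set by the authors, and it is read only within its list.

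EGL-4, a kinase activated by cGMP, controls body size and behaviour in worms, and SAEG-2 is known as one of the nuclear proteins through which it works, together with SAEG-1 and HDA-2, a histone deacetylase. Most worm promoters lie close to the coding start, and the genome is compact, so distance from coding starts leaves long introns, wide gaps between genes and genes for noncoding RNA. Among these are tRNA genes, which RNA polymerase III transcribes from promoter elements inside the gene, the A box and the B box.

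The sequences below show the summits of 4 of the strongest distal peaks, which differ in composition. They are read from the RefSeq copy of WBcel235 (ce11), plus strand, 81 bp centred on the summit. Capitals mark 5 words of 6 bases in either direction: GAGAGA and the related word AGAGAC, as well as CGAGAG, and the pair formed by ACGCAG with the overlapping word CGCAGA. Overlapping copies run together. Stronger than the peak near nhr-88 were also those near K02D3.1, in pxn-1 and in mom-1, which are not shown. Their 81 bp hold none of these words, so the 4 shown do not tell how often the words occur.
Near cmd-1, chrV:1151460-1151540: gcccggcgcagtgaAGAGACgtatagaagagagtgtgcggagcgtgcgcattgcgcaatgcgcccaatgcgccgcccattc
Near W02H3.3, chrX:11094128-11094208: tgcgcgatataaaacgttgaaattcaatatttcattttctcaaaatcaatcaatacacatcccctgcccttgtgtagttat
Near nhr-88, chrII:2974098-2974178: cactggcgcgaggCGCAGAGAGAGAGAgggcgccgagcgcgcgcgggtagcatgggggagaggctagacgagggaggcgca
Near bcat-1, chrX:12872437-12872517: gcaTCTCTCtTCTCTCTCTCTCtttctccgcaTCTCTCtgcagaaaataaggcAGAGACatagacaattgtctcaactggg

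Summits at 3 tRNA genes follow, with 50 bp on either side, plus strand, because tRNA genes were the commonest small RNA genes at distal summits. Capitals mark GTTCGANNC, the core of the B box, in either direction. All 3 shown hold it and have the summit inside the gene. Of the 57 distal summits at tRNA genes, 25 have it in their window and 35 lie inside the gene. The stronger peaks at R01H5.t1 and F46G11.t2 lack it and are not shown.
C33G3.t2 (tRNA-Lys), chrX:14063954-14064054: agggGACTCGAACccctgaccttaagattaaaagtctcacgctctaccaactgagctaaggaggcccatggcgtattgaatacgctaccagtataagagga
K02A4.t1 (tRNA-Ser), chrX:12889925-12890025: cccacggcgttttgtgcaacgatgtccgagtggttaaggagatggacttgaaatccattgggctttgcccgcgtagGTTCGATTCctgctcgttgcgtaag
Y82E9BR.t1 (tRNA-Gly), chrIII:1424478-1424578: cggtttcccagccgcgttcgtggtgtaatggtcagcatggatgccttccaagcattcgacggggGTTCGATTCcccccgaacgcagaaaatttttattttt

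The last 3 show the strongest distal peak in repeated sequence away from tRNA genes (81 bp, words marked as above) and the 2 strongest with the palindrome CACGTG near the summit (61 bp, CACGTG in capitals).
Near K08F11.1, chrIV:4728017-4728097: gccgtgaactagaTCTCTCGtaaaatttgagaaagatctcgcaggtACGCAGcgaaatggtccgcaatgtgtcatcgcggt
Near T04C4.3, chrIV:2219611-2219671: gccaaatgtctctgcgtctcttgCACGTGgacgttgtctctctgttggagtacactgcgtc
In Y43F8B.2, chrV:19529363-19529423: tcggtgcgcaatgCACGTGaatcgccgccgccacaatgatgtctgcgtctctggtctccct

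Distal peaks were less dense than the other peaks. Bases more than 2000 bp from a coding 5′ end made up 35.0% of the genome, or 35.1 Mb, and held 9.36 distal peaks per Mb. The remaining 65.1 Mb held 12.5 other peaks per Mb. The median distance of a distal summit to the nearest coding 5′ end was 3196 bp, and 90% of distal summits lay within 6585 bp. In all, 184 were more than 3000 bp away, 66 more than 5000 bp and 8 more than 10000 bp. Of the distal summits, 165 lay upstream of the nearest coding 5′ end and 164 downstream of it.

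The distal peaks had a median signal value close to that of the other peaks. Their signal values had a median of 97.1, with quartiles of 81.4 and 128.6 and a maximum of 464, against a median of 96.8, quartiles of 81.6 and 124.9 and a maximum of 589 for the other peaks. The top 25% of the conservative list by signal value took 87 distal peaks (26.4%) and 200 other peaks (24.5%), a difference of 1.93 percentage points (95% interval −3.49 to 7.69; Fisher's exact test, two-sided, Benjamini-Hochberg adjusted over 12 properties, adjusted exact p = 0.665). Windows of 50 bp on either side of the summit had a median GC content of 47.5% in distal peaks and 48.5% in other peaks, against 34.7% in windows of the distal genome.

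Both replicates called a part of the distal peaks on their own. A thresholded peak of each replicate overlapped 83 distal peaks (25.2%, 20.8 to 30.2), a thresholded peak of replicate 1 alone overlapped 28, one of replicate 2 alone overlapped 54, and 164 (49.8%) had no thresholded peak of either. Over all 1145 conservative peaks the share found in both was 26.3%, and 218 of the other peaks (26.7%) were in both. The difference was −1.49 points (−6.88 to 4.27; adjusted exact p = 0.788 by the same test). Of the strongest 82 distal peaks, 69 were in both lists (84.1%), and of the weakest 82, 3 were (3.66%). The other peaks gave 177 of the strongest 204 (86.8%) and 6 of the weakest 204 (2.94%). The conservative list rests on the same replicates, so this contrast is no independent measure of agreement. In the ranked lists, which also hold peaks below the threshold, 320 distal peaks had a value in each replicate. The log2 values correlated with Pearson's r = 0.77 across these 320 peaks, which share 1 pair of libraries. The conservative list was itself selected on reproducibility between the replicates, and some overlapping peaks carry the same pair of replicate values. This r is therefore a description and no independent measure of agreement. For 218 of the 320 the value was higher in replicate 2, where the scale is that of its own list.

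A set of 21 distal peaks had signal values under 40, between 2.06 and 26.4. All 21 overlapped a stronger conservative peak, so they are second calls beside a summit that is listed with its own value. The other peaks held 51 with a signal value under 40, of which 48 overlapped a stronger conservative peak.

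**Figure D1:**
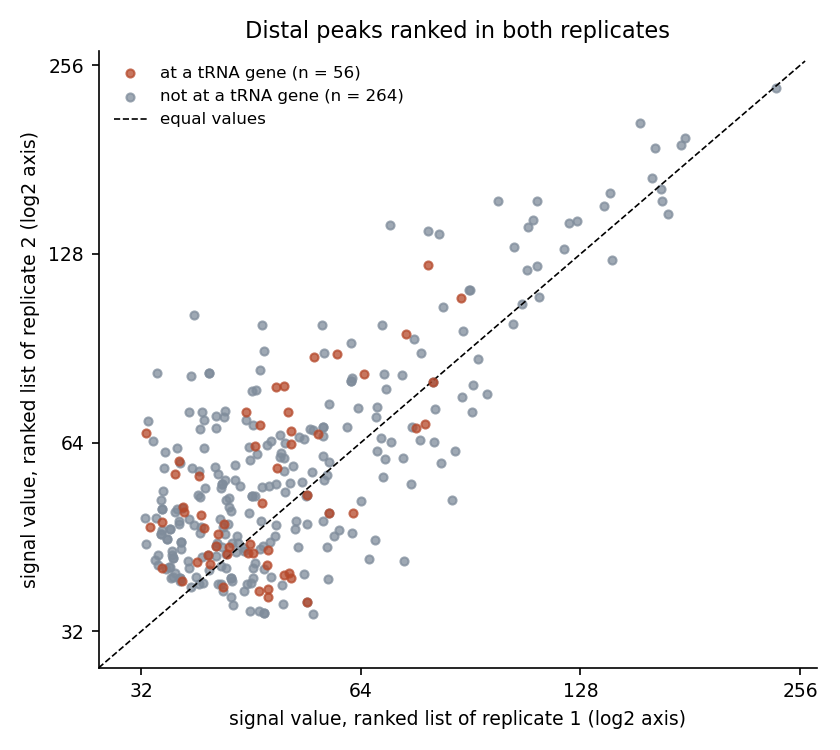
Signal value of the 320 distal peaks found in the ranked lists of both replicates, replicate 1 on the x axis and replicate 2 on the y axis, both on log2 scales of their own lists. Peaks at tRNA genes reach 87.8 in replicate 1 and 123 in replicate 2, and the strongest peaks in both replicates are not at tRNA genes.

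The strongest distal peaks were strong in both replicates, on which their values in the conservative list also rest. The peak near cmd-1, which encodes calmodulin, had the highest value, 464 in the conservative list, with 237 for replicate 1 and 235 for replicate 2. Its summit lies 4771 bp upstream of cmd-1 inside linc-128, a long intergenic noncoding RNA gene of 2302 bp. The gap between the flanking coding genes, cutl-22 and cmd-1, is 9769 bp. The second peak, near W02H3.3, had 389 in the conservative list, with 178 in replicate 1 and 196 in replicate 2, and lies between the 3′ ends of W04G3.11 and W02H3.3. The third, 6057 bp upstream of K02D3.1, had 368, with 176 in replicate 1 and 191 in replicate 2. Both of these lie on X, and neither has an annotated small RNA gene within 100 bp.

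Next came a peak in intron 17 of pxn-1, a peroxidasin of the extracellular matrix, with 359 in the conservative list, with 155 in replicate 1 and 207 in replicate 2. The snoRNA gene ZK994.7 begins 8 bp from that summit. A peak in the last of 7 introns of mom-1, whose product is needed to release Wnt proteins, had 356, with 162 in replicate 1 and 189 in replicate 2. The peak 2501 bp upstream of the nuclear hormone receptor gene nhr-88 had 334, with 165 in replicate 1 and 163 in replicate 2. The peak 5003 bp upstream of bcat-1, a branched-chain amino acid aminotransferase gene, had 331, with 161 in replicate 1 and 169 in replicate 2. Peaks near K08F11.1 (326), in intron 4 of Y111B2A.12 (320) and upstream of the RNA-binding protein gene sup-26 (312) completed the first 10. All of the 20 strongest were in the thresholded lists of both replicates, and replicate 2 had the higher value in 15 of them.

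**Figure D2:**
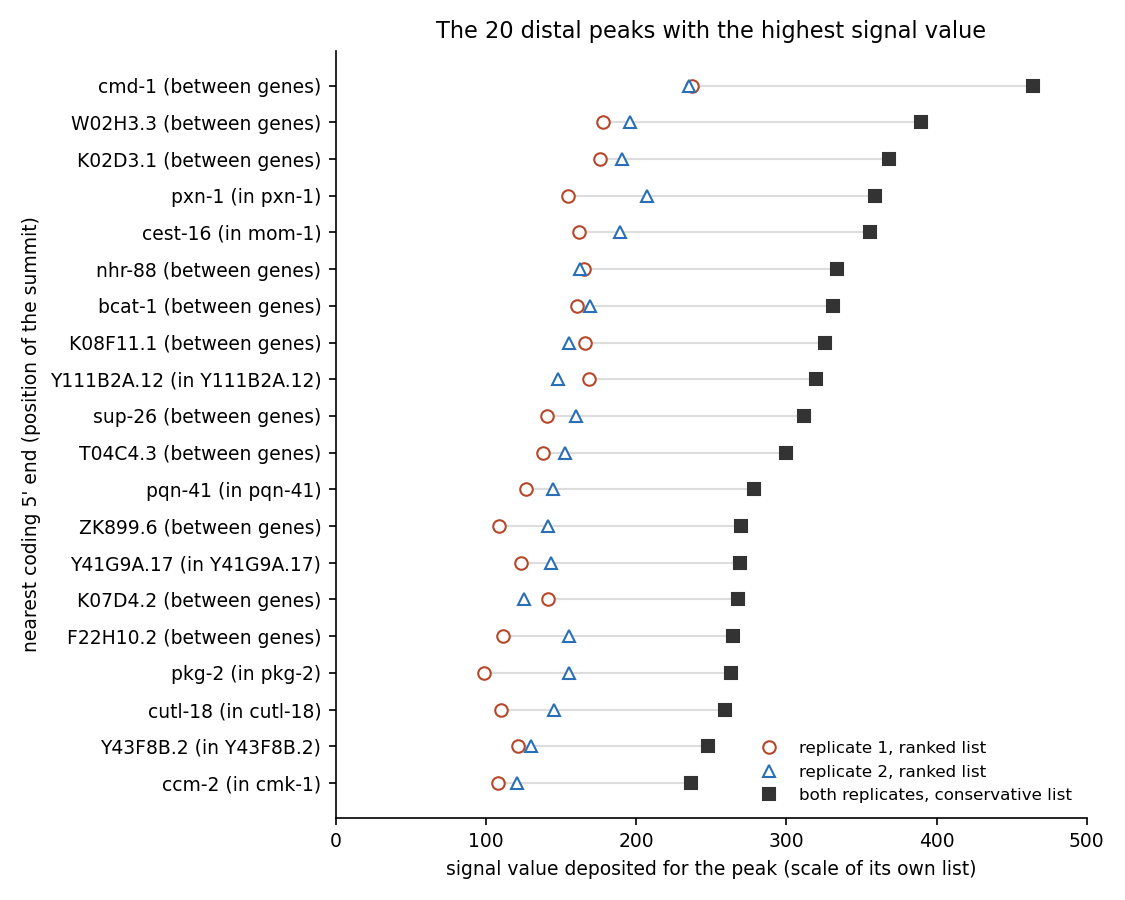
Signal values of the 20 strongest distal peaks, in the ranked list of replicate 1 (circles), the ranked list of replicate 2 (triangles) and the conservative list of both replicates (squares), each on the scale of its own list. The peak near cmd-1 is the highest in all 3, and replicate 2 has the higher value in 15 of the 20.

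Distal summits lay mainly between genes and in introns. Of the 329, 160 were intergenic (48.6%, 43.3 to 54.0), 90 were in introns (27.4%, 22.8 to 32.4), 47 in exons of transcripts annotated as noncoding (14.3%, 10.9 to 18.5), which include pseudogenes and noncoding transcripts of coding genes, 23 in coding exons (6.99%, 4.70 to 10.3), 8 in 3′ UTRs and 1 in a 5′ UTR. The distal genome itself was 43.1% intergenic, 32.0% intronic, 4.16% noncoding exon and 17.9% coding exon. The share in noncoding exons was thus above that of the distal genome, and the share in coding exons below it, with intervals that leave out the genome values. The interval of the intergenic share also begins just above its genome value. So does that of the 5′ UTR share, which rests on 1 peak. Without the peaks at tRNA genes the noncoding exon share was 21 of 272 (7.72%), and in the lists of single replicates the coding exon share was 4.20% (replicate 1) and 2.82% (replicate 2). Of the other peaks, 47.9% were intergenic, 24.5% intronic, 10.7% in noncoding exons and 11.6% in coding exons. These classes are linked to distance from coding starts and were not tested.

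Among the 205 distal peaks outside coding genes, 56 lay between divergent neighbours (27.3%), 47 between convergent neighbours (22.9%) and 102 between neighbours on the same strand (49.8%). Of the space between coding genes that is distal, 29.4% was divergent, 17.1% convergent and 53.1% tandem. The interval of the convergent share, 17.7 to 29.1, begins just above the 17.1% of the space. It takes the summits as independent, although some share a gap, such as the 4 beyond C30E1.4 on X, and an excess was not tested. The median gap around these peaks was 7606 bp, and the nearer coding gene began or ended a median of 2452 bp from the summit. Examples between convergent genes are the peaks near W02H3.3, near F22H10.2 (264; 111 in replicate 1 and 155 in replicate 2) and between daf-16 and gpx-8. The last, 813 bp beyond the 3′ end of daf-16, the FOXO transcription factor of insulin signalling, had 218 in the conservative list, with 79.1 in replicate 1 and 139 in replicate 2.

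**Figure D3:**
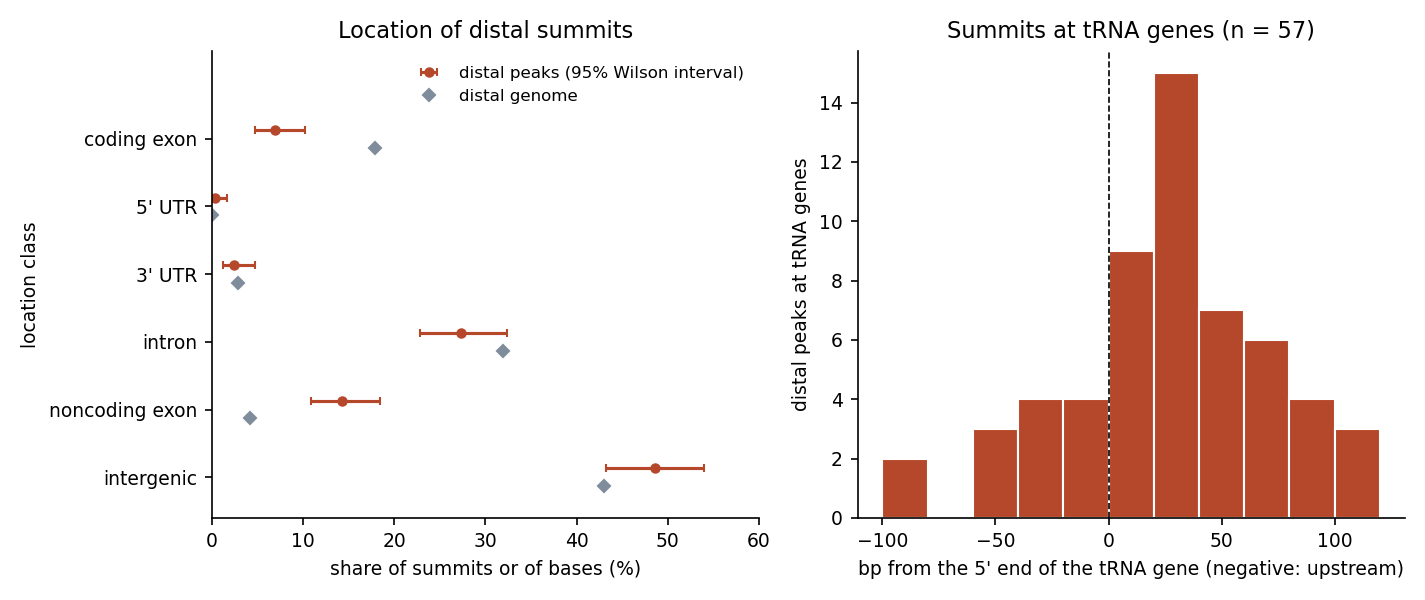
Left, share of the 329 distal summits in each location class with 95% Wilson intervals, above the share of distal genome bases in that class, in percent. Right, number of distal summits at tRNA genes by distance in bp from the 5′ end of the gene. Noncoding exons hold 14.3% of summits and 4.16% of distal bases, and most tRNA summits fall inside the gene.

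Intronic distal peaks sat in long introns of long genes. The 90 peaks lay in 75 host genes, in introns with a median length of 2643.5 bp, where the median over all 109051 introns of coding transcripts was 68 bp. The hosts had a median length of 9767 bp, against 2027 bp over all 19973 coding genes. A summit more than 2000 bp from every start needs a gene of some length, so these lengths are in part fixed by the rule. Long introns and genes also offer more bases to a summit, while the medians over all introns and genes count each once. The medians are thus unlike measures, and medians weighted by bases were not computed. Of the 90, 17 were in a first intron, 25 (27.8%) were in the thresholded lists of both replicates, and 29 had a tRNA, snoRNA, snRNA, miRNA or spliced leader RNA gene within 1000 bp.

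Of the 61 intronic peaks without such a gene, the strongest were those in mom-1 and Y111B2A.12. The next, in the first intron of pqn-41, had 278 in the conservative list, with 127 in replicate 1 and 145 in replicate 2. The same intron of 7776 bp held a further peak of 164, 1639 bp away. pqn-41 encodes a glutamine-rich protein needed for the death of the linker cell. A peak in Y41G9A.17 had 269, with 123 in replicate 1 and 143 in replicate 2. One in intron 2 of cmk-1, the calcium/calmodulin-dependent protein kinase I gene, had 236, with 108 in replicate 1 and 121 in replicate 2. One in the first intron of daf-5, a Sno/Ski co-regulator of the dauer TGF-β pathway, had 223, with 103 in replicate 1 and 99.1 in replicate 2. That intron is 14446 bp long.

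In all, 124 distal peaks lay inside coding genes, and 3 genes held 3 or more. ppfr-1, a regulatory subunit of protein phosphatase 4, held 4 peaks along its 25884 bp. Their values were 230, 129, 97.9 and 69.8 in the conservative list, with 104, 73.0, 32.8 and 37.2 in replicate 1 and 131, 60.4, 69.4 and 40.4 in replicate 2. Each replicate's thresholded list held a different pair of these 4, and only the first was in both. The strongest lies in the ncRNA gene F16A11.7 within the intron. pkg-2, another cGMP-dependent protein kinase gene of the worm beside egl-4, held 3 peaks in introns. They had 263, 122 and 98.0 in the conservative list, with 98.6, 56.8 and 50.4 in replicate 1 and 155, 61.0 and 53.3 in replicate 2, and only the first was in the thresholded lists of both replicates. H18N23.2 on X held 3, of 149, 108 and 89.8, none of them in both.

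Distal peaks also stood in groups. With gaps under 2000 bp, 38 groups held 83 of the 329 peaks. The 5 largest were 4 peaks over 2269 bp between lpin-1 and letm-1, 4 over 2661 bp beyond C30E1.4 on X, 3 over 1619 bp in ppfr-1, 3 over 1438 bp near W05H9.4 and 3 over 1898 bp near W09D10.4. The groups include the second calls described above, such as that of 8.29 beside the peak of 201 in the first group.

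A tRNA gene was the commonest small RNA gene at a distal summit. Of the 329 distal peaks, 57 had a tRNA gene within 100 bp (17.3%, 13.6 to 21.8), against 73 of the 816 other peaks (8.95%, 7.18 to 11.1). The difference was 8.38 points (4.09 to 13.2; Fisher's exact test, two-sided, adjusted exact p = 0.000483). It was smaller in the list of each replicate alone: 19 of 119 distal peaks (15.97%) against 31 of 333 other peaks (9.31%) in replicate 1 (adjusted exact p = 0.165), and 18 of 142 (12.7%) against 40 of 399 (10.03%) in replicate 2 (adjusted exact p = 0.851). Peaks are places in 1 pair of libraries and not replicates of a condition, and neighbouring peaks are not independent, so these p-values treat as independent what partly is not.

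Counted over genes, no difference was called. Of all 612 tRNA genes, 22.7% had a conservative summit within 100 bp. The share was 57 of 239 tRNA genes (23.8%) more than 2000 bp from coding starts, and 82 of 373 (22.0%) nearer to them. The difference of 1.87 points had an interval of −4.82 to 8.85 (Fisher's exact test, two-sided, adjusted over 3 gene classes, adjusted exact p = 0.932). With a limit of 1000 bp the shares were 100 of 389 (25.7%) and 39 of 223 (17.5%), a difference of 8.22 points (adjusted exact p = 0.0634).

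Most of the tRNA summits lay inside the gene. Each of the 57 had a tRNA gene of its own, with 35 summits inside the gene, 13 upstream and 9 downstream. The median position was 30 bp into the gene, from 88 bp upstream (−88) to 116 bp beyond the 5′ end. GTTCGANNC was found in the window of 25 of the 57. A peak lay at 7 of 17 distal tRNA-Ala genes, at 5 of 11 for threonine, 5 of 15 for serine and 5 of 16 for lysine. For methionine a peak lay at 4 of 8, for valine at 4 of 10 and for glutamate at 4 of 11. It lay at 3 of 24 for glycine, 2 of 19 for arginine, none of 6 for phenylalanine and none of 9 for tryptophan. Differences between amino acids were not tested. X held 33 of the 57 (57.9%), and 125 of the 239 distal tRNA genes. On X, 34 of these 125 genes had a peak (27.2%, 20.2 to 35.6), and on the autosomes 23 of 114 (20.2%, 13.8 to 28.5).

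The tRNA peaks were of middling strength, with a median signal value of 93.4 and a range of 69.6 to 208. In the ranked lists their medians were 46.7 in replicate 1 and 49.4 in replicate 2, against 46.4 and 54.4 for the 272 distal peaks not at tRNA genes. Both replicates called 11 of the 57 (19.3%), against 72 of the 272 (26.5%). The strongest was at F15G9.t1, an alanine tRNA gene in an intron of him-4, the hemicentin gene, with 208 in the conservative list, with 79.1 in replicate 1 and 123 in replicate 2. R01H5.t1, for threonine, had 196, with 87.8 in replicate 1 and 109 in replicate 2. Its summit is 28 bp into the gene and 10957 bp from the nearest coding start. C33G3.t2, for lysine, whose sequence is given above, had 162, with 73.8 in replicate 1 and 95.4 in replicate 2. Of the 57, 18 lay in coding genes, 8 with the tRNA gene on the strand of the host and 10 on the other.

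Other small RNA genes were rarer at distal summits. A snoRNA gene lay within 100 bp of 11 distal peaks (3.34%) and 39 other peaks (4.78%), a difference of −1.44 points (−3.67 to 1.40; adjusted exact p = 0.508). Over genes, 11 of 112 distal snoRNA genes (9.82%) and 39 of 234 others (16.7%) had a summit, with 14.5% over all 346 (difference −6.85 points, −13.6 to 1.26; adjusted exact p = 0.310). snoRNAs guide the modification of other RNAs, and in worms many lie in introns. Beside the peak in pxn-1, one in intron 7 of the cuticlin-like gene cutl-18 lay 44 bp from T03F7.8 and had 259, with 110 in replicate 1 and 145 in replicate 2. One 59 bp from Y23H5B.10 had 189, with 90.5 in replicate 1 and 112 in replicate 2. It was also the farthest of all distal peaks from a coding start, at 16236 bp.

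Genes for snRNA, miRNA, rRNA or spliced leader RNA lay at 6 distal peaks (1.82%) and 13 other peaks (1.59%; adjusted exact p = 0.851). The snRNA gene sup-6 in an intron of F58G1.7 had 2 of them, of 141 and 110, which overlap and share their replicate values of 62.2 and 80.4. R07E5.16 in C28A5.6 had 111, with 64.1 in replicate 1 and 51.6 in replicate 2. The spliced leader genes sls-2.15 and sls-2.16 had 105 and 90.2, and the second lies in an intron of glr-2, a glutamate receptor subunit gene. Of 261 miRNA genes, 0.766% had a conservative summit. The single distal one was cel-mir-51 with 69.4, that is 1 of 126 distal miRNA genes against 1 of 135 others (adjusted exact p = 1). No rRNA gene and 1 piRNA gene lay within 100 bp.

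Exons of other noncoding RNA genes held 47 distal summits (14.3%) and 113 other summits (13.8%), a difference of 0.44 points (−3.78 to 5.17; adjusted exact p = 0.851). Many of these summits are also counted at tRNA genes. Without the peaks at tRNA genes they were 23 of 272 distal peaks (8.46%) and 78 of 743 other peaks (10.5%). The strongest were those in linc-128, F16A11.7 in ppfr-1 and F15G9.8, which overlaps the tRNA gene in him-4. Pseudogenes held 4 distal summits (1.22%) and 4 other summits (0.490%; adjusted exact p = 0.406), of which the strongest distal one, of 123, lay in an intron of unc-104, the kinesin gene for synaptic vesicle transport. At 231 of the 329 distal peaks (70.2%) none of these classes was found. Their median signal value was 96.6, against 98.2 for the 98 with one, and 59 of the 231 (25.5%) were called in both replicates.

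Repeated sequence was commoner at distal peaks. The window around the summit had at least 1 further match in the genome, of at least 90% identity over 80 bp or more, in 83 distal peaks (25.2%, 20.8 to 30.2) and 100 other peaks (12.3%, 10.2 to 14.7). The difference was 13.0 points (7.96 to 18.4; adjusted exact p = 1.06e-06). Away from tRNA genes the shares were 56 of 272 distal peaks (20.6%) and 68 of 743 other peaks (9.15%). In the list of replicate 1 they were 20.2% and 11.4% (adjusted exact p = 0.0744), and in that of replicate 2 they were 22.5% and 12.03% (adjusted exact p = 0.0201). With those ranked peaks restored that pass the same IDR limit (irreproducible discovery rate) and are absent from the conservative list, they were 34.4% and 13.3%, a difference of 21.1 points. Of the 83 distal peaks, 48 had fewer than 10 further matches, 26 had 10 to 99 and 9 had 100 or more.

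The 3 peaks with most matches had signal values below the median of the distal peaks. One between genes near T02H6.11 had 950 further matches and a signal value of 81.7, with 43.4 in replicate 1 and 45.5 in replicate 2. One in an intron of Y32F6A.5 had 924 and a value of 79.2, with 35.5 in replicate 1 and 39.1 in replicate 2. One near srd-23, a chemoreceptor gene, had 643 and a value of 75.1, with 32.4 in replicate 1 and 48.5 in replicate 2. The strongest repeated peak, near K08F11.1, had 7 further matches. The 83 had a median signal value of 98.9, 18 (21.7%) were in both replicates, and 27 were at tRNA genes. The summit base was soft-masked as a repeat in the reference in 65 distal peaks (19.8%) and 115 other peaks (14.1%), below the 39.4% of the distal genome and the 33.7% of the rest. That difference of 5.66 points had an adjusted exact p of 0.0574. In single replicates the shares were 22.7% and 12.01% (replicate 1) and 13.4% and 13.3% (replicate 2). No label or header says how reads from repeated places were counted, and its part in these values was not tested.

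The X chromosome held a larger share of the distal peaks. It had 113 of the 329 (34.3%, 29.4 to 39.6), against 156 of the 816 other peaks (19.1%, 16.6 to 22.0), a difference of 15.2 points (9.54 to 21.1; adjusted exact p = 1.05e-06). In replicate 2 alone X held 57 of 142 distal peaks (40.1%) and 83 of 399 other peaks (20.8%; adjusted exact p = 0.00013), and in replicate 1 alone 37 of 119 (31.1%) and 64 of 333 (19.2%; adjusted exact p = 0.0557). X also holds 20.5% of the distal genome. Per Mb of distal genome there were 15.7 distal peaks on X and 7.74 on the autosomes, where single autosomes ranged from 6.58 on IV to 10.2 on III. The other peaks had 14.9 per Mb on X and 12.1 on the autosomes. Without the peaks at tRNA genes the distal density was 11.1 per Mb on X and 6.88 on the autosomes, and the density of the other peaks was not recounted. With tRNA peaks left out of both sets, X held 80 of 272 distal peaks (29.4%) and 122 of 743 other peaks (16.4%). On the autosomes, 96 of 216 distal peaks (44.4%) and 263 of 660 other peaks (39.8%) lay in the outer 25% at either end, a difference of 4.60 points (−2.90 to 12.2; adjusted exact p = 0.406).

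**Figure D4:**
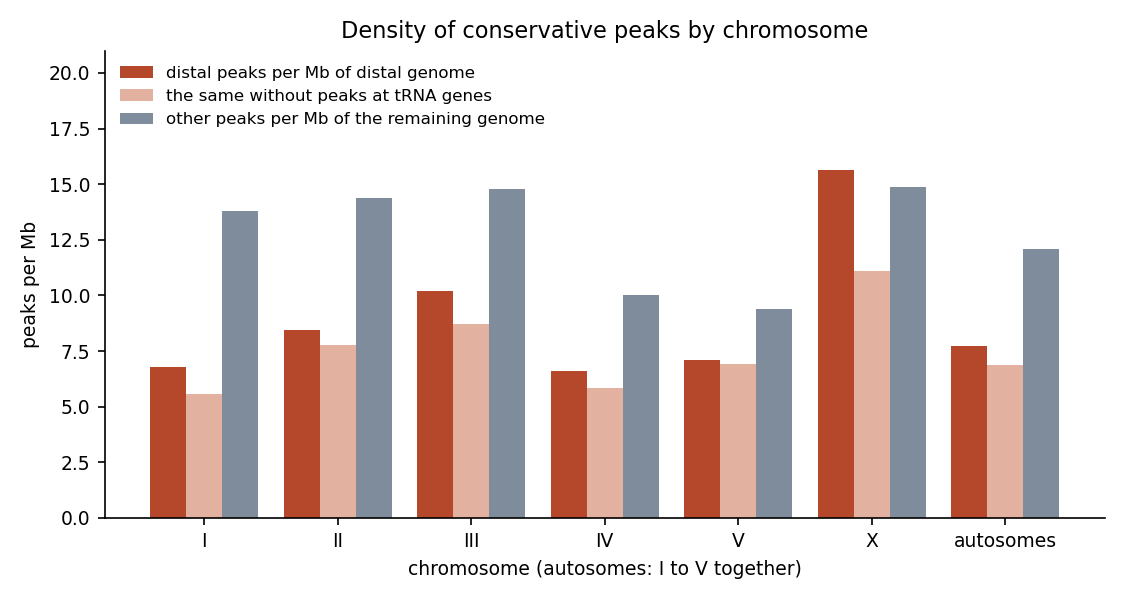
Conservative peaks per Mb on each chromosome and on the autosomes together, for distal peaks over the distal genome, distal peaks without those at tRNA genes, and other peaks over the remaining genome. With tRNA peaks kept in both sets, X has the highest distal density, 15.7 per Mb, and the only one above that of the other peaks on the same chromosome. Without them the distal density on X is 11.1 per Mb, and the other peaks are shown only with them.

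**Figure D5:**
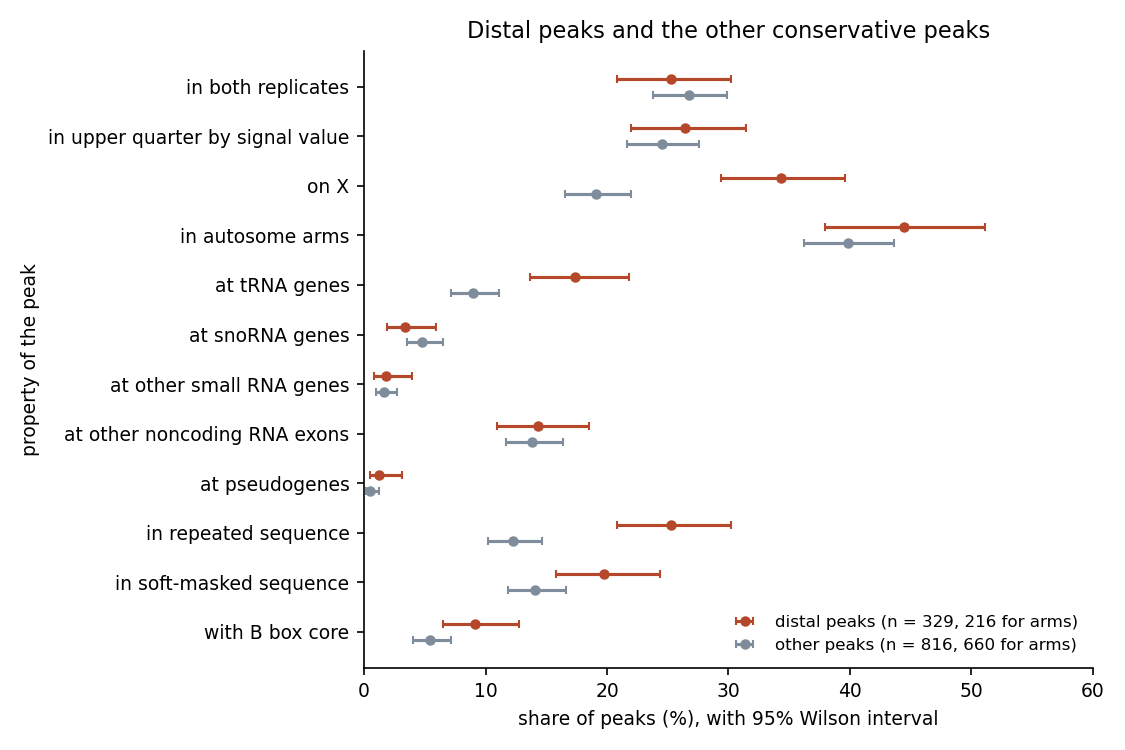
Share of distal peaks (upper point) and of other peaks (lower point) with each of 12 properties, in percent with 95% Wilson intervals. The intervals of both sets stand apart for X, tRNA genes and repeated sequence, and overlap for the other 9 properties.

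Distal summits shared short words with one another that their flanks held less often. The 5 words that gained most between flank and centre are those in capitals in the first sequences above, and some of them overlap. They were chosen from these peaks, so their counts are a description. At least 1 of them was in the window of 111 distal peaks (33.7%), in flanks of the same word number of 51 (15.5%), in 36.2% of other peaks and in 11.1% of distal genome windows. ACCACT, also among the leading 10, was in 46 distal peaks, of which 20 were not at tRNA genes.

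Searched on both strands, GTTCGANNC was in 30 distal peaks (9.12%) and 44 other peaks (5.39%; difference 3.73 points, 0.53 to 7.57; adjusted exact p = 0.0574), and in 0.778% of distal genome windows. Single replicates gave differences of 1.62 points (replicate 1) and 0.78 points (replicate 2). Away from tRNA genes it was in 5 of the 272 distal peaks (1.84%). CACGTG, the E box of basic helix-loop-helix factors, was in 26 distal peaks (7.90%) and 47 other peaks (5.76%), against 1.57% of distal genome windows. GAGAGAG was in 26 (7.90%) and 57 (6.99%), against 1.38% of windows. The GATA-type motif TGATAA was in 35 (10.6%) and 86 (10.5%), near the 8.72% of windows, and GAANNTTC, a form of the heat shock element, in 32 (9.73%) and 47 (5.76%), against 8.05%. TGACTCA, TGACGTCA and CTGTTTCA were each in 4 or fewer distal peaks. A match is only a run of letters in the window.

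Of the 19973 coding genes, 309 held a distal peak or were the nearest to one, which is 1.55%. Where 3 values stand in brackets after a gene, the value in the conservative list is followed by those of replicate 1 and replicate 2. Nuclear hormone receptor genes with a distal peak numbered 9 of 269 (3.35%, 1.77 to 6.24). These were nhr-88, nhr-20 (155; 75.3 and 67.8), nhr-3 (149; 62.2 and 81.2), nhr-277 (148; 69.4 and 77.9) and 5 weaker ones. Of the 9, 8 were the nearest gene and only nhr-19 held its peak. Genes of ion channels and the synapse counted 8 of 285 (2.81%, 1.43 to 5.44), led by the ligand-gated channel gene lgc-21, whose peak lies at C33G3.t2. The peaks of npr-10, lgc-4 and twk-7 also lie at tRNA genes, and that of glr-2 lies at a spliced leader RNA gene. That of unc-104 lies in a pseudogene, and that of unc-43 is a second call of 3.26. The pattern for this list also takes unc-39, a homeodomain factor gene (129; 45.4 and 77.5), whose peak lies in the ncRNA gene F56A12.8. Matrix and adhesion genes counted 3 of 37, with pxn-1, him-4 and the cadherin gene cdh-9. The peak of pxn-1 lies at a snoRNA gene, and those of him-4 and cdh-9 lie at tRNA genes. That of cdh-9 has no value in replicate 1.

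Chemoreceptor genes, the largest list, counted 7 of 1293 (0.541%, 0.262 to 1.11), of which str-77 was the strongest (115; 44.6 and 69.6). F-box and BTB genes counted 2 of 418 (0.478%) and collagens 2 of 193 (1.04%, col-98 and sqt-1). The peaks of col-98 and sqt-1 both lie at tRNA genes. The cGMP signalling list counted 2 of 45, pde-2 with a peak in an intron (93.5; 52.5 and 43.6) and gcy-3 with one 5134 bp away (80.1; 41.8 and 42.5). The pattern for that list does not take pkg-2, which held 3 distal peaks, the strongest of 263, as described above. Insulin signalling counted daf-16 among 44, Wnt and Notch genes mom-1 among 15, homeodomain factors ceh-60 among 72 (116; 47.6 and 63.4) and chaperones hsp-70 among 59. The hsp-70 peak of 81.5 lies at a tRNA gene in an intron of uggt-2. No ribosomal protein gene of 81 had a distal peak, which at 3 counts of the total allows a share of up to 3.70%. The same held for a chosen list of 10 genes of SAEG-2, its partners and deacetylase complexes, where the same floor allows up to 30%. That list does not take the deacetylase gene hda-4, and a distal peak of 131 lay 2516 bp upstream of hda-4. A weak call of 3.88 lay 283 bp beyond the 3′ end of rcor-1, a list member, but nearer to the 5′ end of another gene.

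The rule's limit cuts through a continuous range. Just inside it were peaks in ckk-1 (2001 bp; 119, with 52.7 in replicate 1 and 65.3 in replicate 2), near klp-13 (2001 bp; 81.8, with 48.1 and 44.4) and in the heterochronic gene lin-14 (2010 bp; 91.7, with 36.2 and 59.5). Just outside were peaks near hif-1 (1981 bp; 141), near cya-1 (1997 bp; 3.95) and in unc-43 (2000 bp; 78.9). The unc-43 peak has a second call of 3.26 on the distal side of the limit, and both carry the same replicate values of 41.4 and 37.1. The 5 farthest peaks were 11536 to 16236 bp from any coding start. Besides that at Y23H5B.10, they included one in a coding exon of the polyketide synthase gene pks-1, 15236 bp away, with 188 in the conservative list, with 88.5 in replicate 1 and 96.5 in replicate 2.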

How the data were processed

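Peak lists on ce11 (WBcel235) were analysed for 2 biological replicates of 1 group. Per the file headers and the deposited file list, the series' lists rest on both replicates, and each replicate's lists on its own alignments. No label or header names the aligner, the peak caller or a version. The signal values in the deposited lists are on a scale that is not stated. The ranked lists deposited by the authors also give a −log10 value of the irreproducible discovery rate (IDR). Read depth is unknown.

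A peak's value in a replicate is the highest of the overlapping peaks (at least 1 bp) in that replicate's ranked list. Genes came from Ensembl release 115, with 644 missing symbols filled from RefSeq, and sequence from RefSeq. Where location classes overlap, coding exons took precedence over UTRs, these over introns, and these over exons of noncoding transcripts. Further matches were found with BLAST 2.17.0. Fisher's exact tests, two-sided, came from scipy 1.17.1 with Benjamini-Hochberg adjustment (statsmodels 0.14.6) and a threshold of 0.05. The code was tested on simulated data. Wilson intervals cover counting error only.

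The peaks named are the 20 strongest, the 3 strongest of each noncoding class, the 10 strongest introns without small RNA genes, hosts with 3 or more peaks, the 5 largest groups, the 5 farthest peaks, those nearest the limit, and members of 13 gene lists. The members and lists were chosen with earlier results of these data known. The 2 most repeated summits and those near srd-23, F22H10.2 and unc-39 were picked after their values were seen, as were the words. Alternatives changed the distance limit, the list, the overlap, the annotation and the treatment of repeated and neighbouring peaks.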

Additional observations from a re-analysis of the deposited data

Results flagged for a closer look

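A signal was found in data that the comparisons above do not use. The ranked list of both replicates held 1203 peaks with an IDR of 0.01 or lower, and 58 of them are absent from the conservative list. By the same rule 46 of the 58 are distal (79.3%, 95% Wilson interval 67.2 to 87.7), against 28.7% of the conservative list itself. All 46 had a further match in the genome, 39 had a soft-masked summit, 10 were on X and 2 had an rRNA gene within 1000 bp. Their signal values ran from 18.3 to 2682 with a median of 113. None of the 46 overlapped a thresholded peak of either replicate, although the ranked lists of both replicates hold the strongest ones. The highest, between genes near Y7A5A.7 on X, had 2682 in the ranked list of both replicates, 1294 in replicate 1 and 1518 in replicate 2, and its summit window had 295 further matches. The next, near R57.2 on X, had 649, with 305 in replicate 1 and 356 in replicate 2, and 24 further matches. No label or header says why these peaks are absent, and a cause was not tested.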

How the results depend on the processing

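No paired analysis was possible because the samples form 1 group, so there are no groups to block by replicate. The share of distal peaks, 28.7%, became 47.6% with a limit of 1000 bp, 5.76% with 5000 bp, 35.3% with the outermost 5′ end of each gene alone, 25.6% without peaks that have a further match, and 24.7% on the autosomes alone; in the list of 1 replicate it was 26.2% to 26.3%. The intronic share, 27.4%, became 37.4% with the outermost 5′ ends and 23.9% to 33.6% in single replicates. Differences below are distal minus other peaks in percentage points. The X difference was 11.9 to 19.3 in single replicates and lost its call in replicate 1. The repeat difference was 8.76 to 10.5 in single replicates, lost its call in replicate 1, and was 11.98 at 5000 bp (adjusted exact p = 0.0883). The tRNA difference was the least stable: 2.65 to 6.66 in single replicates, 0.81 at 5000 bp, 4.36 in the upper 50% by signal value and 5.202 on the autosomes, without a call in any of these. With the absent ranked peaks restored, the soft-masked difference was 13.0 and called (27.7% against 14.7%). At 1000 bp the GTTCGANNC difference was 5.87 and called, and without tRNA peaks it was −0.046. The remaining sign changes were between uncalled values. At 1000 bp these were −0.56 (top 25%), 1.12 (snoRNA), −0.37 (other small RNA) and −0.51 (miRNA genes); at 5000 bp they were 1.80 (snoRNA), −1.76 (other small RNA), −7.63 (tRNA genes), 0.39 (snoRNA genes) and −0.91 (miRNA genes). In the non-conservative list they were −0.41 (top 25%), −0.47 (other small RNA), −1.71 (tRNA genes) and −0.74 (miRNA genes). With the outermost 5′ ends they were −0.27 (other small RNA), −0.94 (noncoding exons), −1.62 (tRNA genes) and −0.14 (miRNA genes). The upper 50% gave −0.47 (noncoding exons), −0.13 (pseudogenes) and −2.64 (tRNA genes). The noncoding exon difference was −0.43 with close peaks joined, −1.18 without further matches, −1.11 with absent peaks restored and −2.04 without tRNA peaks. The tRNA gene difference was −0.58 without further matches, and the top 25% −0.61 on the autosomes. Single replicates gave −0.65 to 13.5 (arms), −1.05 to 0.42 (other small RNA), −3.85 to 2.11 (noncoding exons), −0.50 to −0.061 (pseudogenes) and −4.65 to −1.28 (tRNA genes). Restoring the absent peaks, leaving out tRNA peaks and the autosomes alone were chosen after seeing the data. Replicate agreement cannot be compared in a single replicate's list.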
